A study of Homo sapiens with 7 samples.

Results

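Phosphorylated and ubiquitylated histone H2A were compared with each other in VRK1-depleted chromatin, at 70135 regions that neither of the 2 libraries had been used to call. The regions came from the peak lists of the 5 other libraries of the study: 24891 from ubK119 in control cells, 16507 and 13252 from the input DNA of siVRK1 and siControl cells, 12423 from VRK1 and 3062 from pT120 in control cells. Of 92638 regions in those lists, 91126 lay on chromosomes 1 to 22 and 88458 of these had at most 100 reads in each input. Overlapping regions were pooled by keeping the longest, which left 70804, of which the input maximum removed 669. All 7 lists of the study together held 148917 regions, overlapping ones included.

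HT1080, a human fibrosarcoma cell line, had received siRNA that targets VRK1 (siVRK1) or a siRNA without a target (siControl), and its fixed and sonicated nuclei were used for chromatin immunoprecipitation and sequencing. The compared libraries were both from siVRK1 cells. One was made with an antibody to H2A phosphorylated at threonine T120 (pT120) and the other with an antibody to H2A ubiquitylated at lysine K119 (ubK119), with siVRK1 input DNA as background. The siControl libraries (pT120, ubK119, VRK1 and input) serve below as readouts outside the comparison. All libraries came from a single cell line. No VRK1 library of siVRK1 cells was analysed, so the loss of the kinase is taken from the labels and not verified here.

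H2A carries the lysine K119 and the threonine T120 side by side in its C-terminal tail. Polycomb repressive complex PRC1 attaches a single ubiquitin to K119, a mark found over silenced developmental genes and, at a lower level, over much of the genome. VRK1 is a nuclear serine/threonine kinase that binds chromatin, and T120 of H2A is among its substrates. Whether one modification is high where its neighbour is low is the question that a comparison of both marks in the same cells addresses.

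The libraries held 36030842 reads for pT120, 29976119 for ubK119 and 33259276 for input. Levels are RPM, the reads counted in a region for every 1000000 reads of its library, and 3 reads correspond to 0.0833 RPM of pT120 and 0.100 RPM of ubK119. Each mark was measured in 1 library. No difference has a replicate check, no p-value was computed, and antibody and library cannot be told apart. Intervals are exact conditional binomial (Clopper-Pearson) 95% intervals and, with 1 library a side, cover counting error only. Amplified reads that carry no molecular identifier cannot be counted as separate molecules, so the intervals can be too narrow even for that error.

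The libraries did not pair up by antibody. Over 21377 regions with at least 60 reads in all 7 libraries together, log2 RPM of siVRK1 pT120 correlated with siControl ubK119 at r = 0.57 and with siControl pT120 at r = 0.45. Log2 RPM of siVRK1 ubK119 correlated with VRK1 at r = 0.59, with siControl pT120 at r = 0.50 and with siControl ubK119 at r = 0.45. Input DNA came about as close. Log2 RPM of siVRK1 pT120 correlated with siControl input at r = 0.54 and with siVRK1 input at r = 0.40. For siVRK1 ubK119 these values were 0.37 and 0.53. Over regions each library of the compared pair was thus closer to a library of another antibody, and to 1 of the inputs, than to its siControl counterpart. Over 5 Mb windows a library of another antibody was closer than that counterpart for ubK119 but not for pT120, as given further on. With each other the compared libraries correlated at r = 0.27. These correlations are descriptions over regions that share DNA copy number, and every direction below holds for the libraries as labelled.

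Over the whole set, pT120 was the lower of the compared marks. The 70135 regions covered 19.1 Mb and held 421150 pT120 reads (11689 RPM) and 672238 ubK119 reads (22426 RPM), beside 22688 RPM of input. The pT120/ubK119 ratio was 0.521 (0.519 to 0.523). Relative to input, pT120 stood at 0.515 and ubK119 at 0.988 in the sum. Many of the regions were called in input DNA, the divisor included, which favours low quotients. Inside input peaks pT120 stood at 0.431 and ubK119 at 0.805 times the input, and outside them at 0.687 and 1.36. Neither mark is therefore read as at or below the background. The 70135 regions gave a pT120/ubK119 ratio of 0.893 in siControl cells, and some of them were called in those siControl libraries.

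The overall level depends on how the libraries are scaled. With the libraries set equal over the pooled regions of both input lists, every log2 ratio rises by 0.92 and the overall ratio becomes 0.988. With the median region set to 1, every log2 ratio rises by 1.13 and the overall ratio becomes 1.14, on the other side of 1. A direction between the marks therefore holds only for RPM, while the order among lists, chromosomes, windows and regions is the same under each scaling. Levels against the input shift too: in the input regions themselves pT120 stood at 0.415 and ubK119 at 0.787 times the siVRK1 input. Values below are in RPM, so that higher, lower, above or below the input, or near-equal are said of RPM alone, and values relative to the input regions are added for the main groups.

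Regions differed by the list they came from. Among regions called with the VRK1 antibody, 11462 lay outside the peaks of both inputs and held 1251 RPM of pT120, 3473 RPM of ubK119 and 2674 RPM of input. Their ratio of 0.360 (0.356 to 0.364) was the lowest of the lists, and relative to the input regions it was 0.683. There pT120 stood at 0.468 and ubK119 at 1.30 times the input. Set against the same quotients in the input regions, these are 1.13 for pT120 and 1.65 for ubK119. All pooled regions gave 1.24 and 1.26 on this scale, and pooled regions outside input peaks 1.66 and 1.73. The input regions were called in input DNA, the divisor included, which favours low quotients there. Values above 1 are therefore not read as enrichment.

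At 3039 siControl pT120 regions outside input peaks, pT120 reached 346 RPM, ubK119 826 RPM and input 642 RPM. The ratio there was 0.419 (0.410 to 0.428), or 0.794 as a multiple of that in the input regions. In siVRK1 cells these siControl pT120 regions outside input peaks therefore held less pT120 than ubK119, under both scalings. Over the whole siControl pT120 list of 5979 regions the ratio was 0.542, or 1.03 relative to the input regions. For that list the direction thus depended on the scaling. At 23650 siControl ubK119 regions outside input peaks, 3783 RPM of pT120 stood against 6466 RPM of ubK119 and 4476 RPM of input. Their ratio was 0.585 (0.581 to 0.589), or 1.11 relative to the input regions, the highest among the antibody lists. The regions called for ubiquitylation in control cells thus had the highest share of phosphorylation among the antibody lists.

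Lists of input DNA differed from each other as well. The 17129 regions of the siControl input list had a ratio of 0.649 (0.645 to 0.654), against 0.475 (0.472 to 0.478) at the 20584 regions of the siVRK1 input list. Relative to the input regions as a whole these are 1.23 and 0.901. The lists share regions, so these values are not independent of each other.

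**Figure D1:**
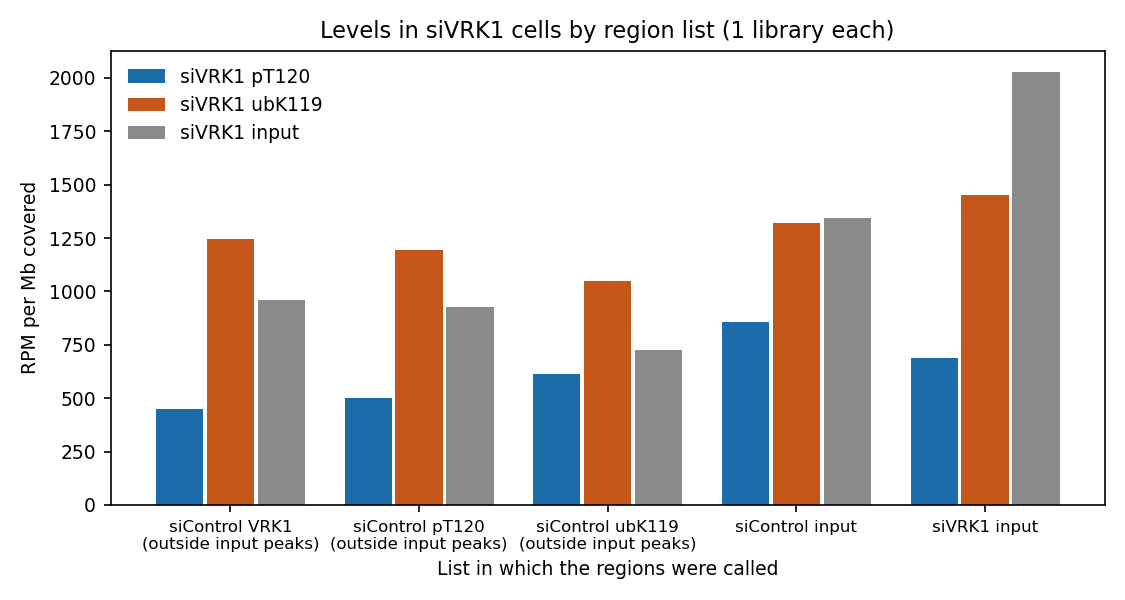
Bars give RPM per Mb covered, from 0, of siVRK1 pT120, siVRK1 ubK119 and siVRK1 input, for each list in which the regions were called; each bar is 1 library and has no error bar. In the VRK1 regions outside input peaks pT120 stood at 449, ubK119 at 1246 and input at 959 RPM per Mb, and in the siControl ubK119 regions outside input peaks at 612, 1047 and 725.

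Region by region, most of those with enough reads lay on the ubK119 side. At least 20 reads in both libraries together were found at 12947 regions. Their median log2 ratio was -1.13, with quartiles of -2.02 and -0.27. At 7112 regions (54.9%) ubK119 was at least 2-fold higher, at 700 (5.41%) pT120 was at least 2-fold higher, and 5135 lay within 2-fold. Relative to the input regions the counts were 3492 and 2236, and with the median region at 1 they were 2969 and 2785. Chromosome 18 held 377 of the 700 pT120-high regions, and also 3021 of the 12947 regions considered. The pT120-high share was 12.5% on chromosome 18 and 15.1% on chromosome 21. Without chromosome 18 it was 3.25% (323 of 9926 regions), and the median log2 ratio was -1.42. With a minimum of 40 reads the median was -0.69.

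**Figure D2:**
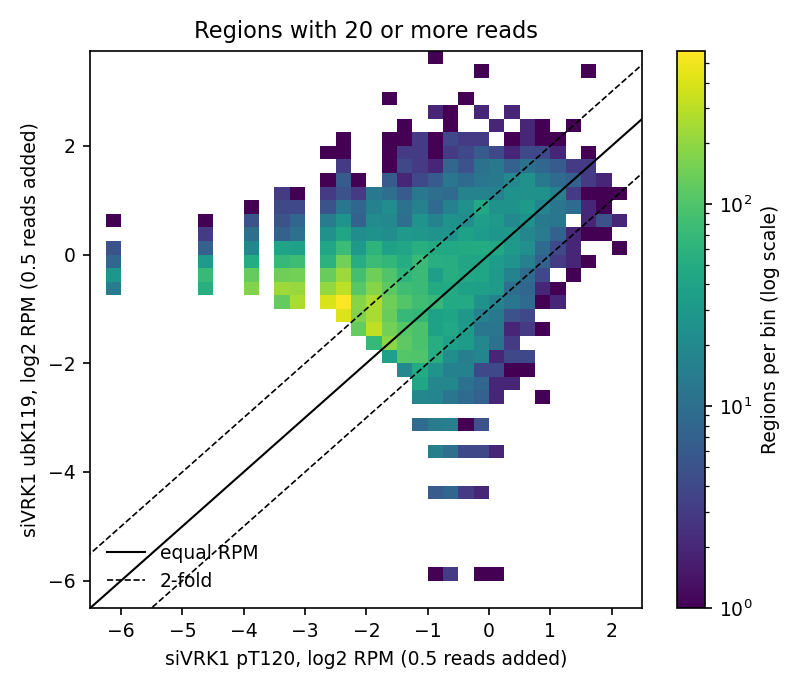
Each cell of the map counts regions with at least 20 reads, by log2 RPM of siVRK1 pT120 (horizontal) and of siVRK1 ubK119 (vertical), with 0.5 reads added to each count and colour on a log scale. The densest cells lie above the line of equal RPM, where 7112 regions pass the upper 2-fold line, against 700 below the lower one, and separate columns at the left are regions with 0, 1 or a few pT120 reads.

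Median levels in the 7112 ubK119-high regions were 0.167 RPM of pT120, 0.667 RPM of ubK119 and 0.451 RPM of input. In the 700 pT120-high regions the medians were 0.666 RPM of pT120, 0.200 RPM of ubK119 and 0.391 RPM of input. In the siControl input the order was the reverse of that in the siVRK1 input, with medians of 0.335 RPM in the ubK119-high and 0.483 RPM in the pT120-high regions. Median lengths were 353 and 359 bp. In each class the median of the higher mark was above and that of the lower mark below the median siVRK1 input.

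Other readouts separated the extremes. Of the pT120-high regions 78.7% overlapped a siControl ubK119 peak, against 46.7% of the ubK119-high regions and 55.8% of all regions with 20 reads. A VRK1 peak was present at 21.6% of the pT120-high and 39.6% of the ubK119-high regions, the latter close to the 40.1% of all regions. For siControl pT120 peaks the shares were 13.9% and 11.7%, against 17.3% of all, and for input peaks 53.7% and 53.9%, against 59.0% of all. Both extremes thus lay below the overall share for siControl pT120 and input peaks. In siControl cells the summed pT120/ubK119 ratio of these classes was 0.711 and 0.958. Both ratios were on the ubiquitylation side, as was that of all regions with 20 reads (0.949). The siControl ubK119 list gave 436 of the 700 pT120-high and 2561 of the 7112 ubK119-high regions. Entry through that list favours a low siControl ratio, so the lower value of the pT120-high regions is not read as a result. A smaller share of the pT120-high regions overlapped a VRK1 peak. Which list a region came from moves with these shares, and its part in them was not tested.

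The amount of VRK1 and of siControl ubK119 in a region went with the ratio in different ways. Regions with 0 to 2 VRK1 reads had a ratio of 0.850 (0.835 to 0.865). It was 0.622 at 3 to 5 reads, 0.494 at 6 to 10 and 0.433 (0.430 to 0.436) at 11 to 20. Above that it was higher again, 0.529 at 21 to 40 reads and 0.590 (0.584 to 0.597) from 41 reads. For siControl ubK119 the ratio went from 0.408 (0.400 to 0.416) at 0 to 2 reads to 0.434 at 6 to 10, 0.561 at 11 to 20 and 0.637 (0.631 to 0.644) from 41 reads. Bins by siVRK1 input reads also dipped in the middle, with 0.797 at 0 to 2 reads, 0.444 at 11 to 20 and 0.612 at 51 to 100. Bins by siControl input reads had 0.487 at 0 to 2 reads, 0.463 at 6 to 10 and 0.760 at 51 to 100. Depth and copy number are shared by all of these counts. A region with few reads of a library is also likely to have entered through the list of another, so the bins partly sort regions by entry list. The siControl pT120/ubK119 ratio was 0.486 at 0 to 2 VRK1 reads and 5.83 at 0 to 2 siControl ubK119 reads. The part of depth, copy number and entry list was not tested, and the bins are not read as a dose relation.

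The ratio was higher in regions called in 3 or more of the 5 lists than in those called in 1 or 2. Those in 1 list had a ratio of 0.496 (0.494 to 0.499), in 2 lists 0.473, in 3 lists 0.560, in 4 lists 0.637 and in all 5 lists 0.728 (0.719 to 0.738). Relative to the input regions this is 0.941 in 1 list and 1.38 in all 5, so whether the marks came closer to equality depends on the scaling. Over the same steps pT120 relative to input was 0.486 in 1 list, 0.470 in 2 and 0.721 in all 5. For ubK119 relative to input it was 0.979 in 1 list and 0.990 in all 5. Longer regions likewise had a higher ratio, with 0.510 at 200 bp and 0.592 from 1000 bp, or 0.967 and 1.12 relative to the input regions.

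Positions are in the human build hg19 as the lists give them, and no gene is named because no annotation of that build was used. The 6 regions outside input peaks with the highest lower bound of the ratio, at most 1 per window, all came from the siControl ubK119 list. Where one mark had 0 reads, the bound of the exact interval is given in place of a fold. On chromosome 20 (29632636 to 29632913), 38 pT120 reads stood against 0 ubK119 and 4 input reads, and the lower bound of the ratio was 8.16. On chromosome 18 (9582482 to 9582866), 30 pT120 reads stood against 0 ubK119 and 11 input reads, with a lower bound of 6.36. On chromosome 7 (61832610 to 61832820), 16 pT120 reads stood against 0 ubK119 and 5 input reads, with a lower bound of 3.21. In these 3 regions ubK119 was below even the input, and pT120 above it.

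The other 3 had a few ubK119 reads. On chromosome 17 (36301382 to 36301889), 42 pT120 reads against 2 of ubK119 gave a ratio of 17.5 (4.54 to 149), with 12 input reads. On chromosome 21 (11060122 to 11060322), 25 reads against 1 gave 20.8 (3.40 to 854), with 4 input reads. On chromosome 4 (190194851 to 190195283), 58 reads against 7 gave 6.89 (3.14 to 17.9), with 13 input reads. The intervals are wide, but each lower bound is above 2.

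In siControl cells the 6 regions had pT120/ubK119 ratios from 0.195 to 0.747. The interval lay below 1 on chromosome 17 (0.0382 to 0.629) and included 1 in the other 5. All 6 entered as siControl ubK119 peaks and were chosen for a high ratio in siVRK1 cells, so the difference between the siRNAs there is set by the choice and is not read as a result.

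At the other end the regions were those with the lowest upper bound, again at most 1 per window. The lowest bound was on chromosome 3 (128132807 to 128134457, 1650 bp), although the ratio itself was lower in 4 of the other regions. This region had 228 ubK119 reads (7.61 RPM), 11 pT120 reads (0.305 RPM) and 48 input reads (1.44 RPM). The ratio was 0.0401 (0.0198 to 0.0732), and ubK119 stood at 5.27 and pT120 at 0.212 times the input. It was also a VRK1 peak, with 80 VRK1 reads, and a peak of both marks in siControl cells, where the ratio was 0.492 (0.337 to 0.703).

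Regions on chromosomes 11 and 20 came from the siControl ubK119 list as well. On chromosome 11 (44881042 to 44882080), 115 ubK119 reads stood against 6 pT120 and 30 input reads, a ratio of 0.0434 (0.0156 to 0.0974). On chromosome 20 (30422842 to 30423257), 50 ubK119 reads stood against 2 pT120 and 13 input reads, a ratio of 0.0333 (0.00392 to 0.127). Both had ubK119 above and pT120 below the input.

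Another 3 came from the VRK1 list and had 0 pT120 reads. On chromosome 5 (1563284 to 1563495), 34 ubK119 and 10 input reads gave the ratio an upper bound of 0.0953. On chromosome 13 (114436701 to 114436909), 24 ubK119 and 10 input reads gave an upper bound of 0.138. On chromosome 17 (77450846 to 77451087), 24 ubK119 and 6 input reads gave the same bound. All 3 lay within 5 Mb of a chromosome end. The 12 regions were chosen by the bounds of this very ratio, so their size is a description and not a test.

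Peaks were also called in the compared libraries themselves. Of 42077 siVRK1 pT120 peaks on chromosomes 1 to 22, 1915 (4.55%) overlapped a siVRK1 ubK119 peak, and of 13562 ubK119 peaks 1911 (14.1%) overlapped a pT120 peak. Outside input peaks, 111 were shared, which is 0.293% of 37901 pT120 and 1.13% of 9803 ubK119 peaks. The lowest peak height was 12 reads for pT120 and 18 for ubK119, and its part in these shares was not tested. No expected overlap was computed, so the shares are not read as high or low.

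Every chromosome had less pT120 than ubK119 in RPM, but by different amounts. Chromosome 17 had the lowest ratio, 0.347 (0.339 to 0.355), with 293 RPM of pT120, 844 RPM of ubK119 and 762 RPM of input over 2595 regions. It was followed by chromosomes 19 (0.416), 11 (0.418), 15 (0.426), 10 (0.431), 5 (0.436), 14 (0.444), 2 (0.451), 20 (0.463) and 1 (0.472). Next came chromosomes 8 (0.483), 7 (0.490), 13 (0.496), 12 (0.50), 22 (0.501) and 9 (0.507). From chromosome 19 to chromosome 9 each interval overlapped that of its neighbour in this order. Chromosomes 3 (0.528) and 6 (0.558) were each separated from both neighbours, while chromosomes 4 (0.601), 16 (0.608) and 21 (0.623) overlapped in turn.

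Chromosome 18 was at the upper end, with a ratio of 0.816 (0.808 to 0.824) from 2313 RPM of pT120, 2836 RPM of ubK119 and 2995 RPM of input. Relative to the input regions this is 1.55, against 0.658 on chromosome 17. On chromosome 18, 12.5% of regions with 20 reads were 2-fold higher in pT120 and 22.1% in ubK119. On chromosome 17, 78.1% were 2-fold higher in ubK119 and 1.92% in pT120.

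The order of the chromosomes depended on which regions were used. With no input maximum, chromosomes 8 (0.934) and 6 (0.799) exceeded chromosome 18 (0.772), and chromosomes 1 and 19 rose to 0.760 and 0.730. In the siControl input list chromosomes 21 (0.790) and 22 (0.776) exceeded chromosome 18 (0.745), and chromosomes 19 and 11 stood at 0.686 and 0.653. Chromosome 22 was above chromosome 18 in the VRK1 list (0.645 against 0.625) and in the siControl pT120 list (0.957 against 0.556). In the siControl pT120 list chromosomes 12 (0.722), 11 (0.707), 7 (0.706), 21 (0.701), 8 (0.682), 16 (0.667), 15 (0.624), 6 (0.607) and 19 (0.604) exceeded chromosome 18 as well. Chromosome 21 was 0.345 without the surroundings of its longest region-free stretch and 0.380 without regions that overlap a peak of the compared libraries, and chromosome 4 was 0.380 without regions within 5 Mb of an end. Chromosome 17 stayed the lowest in each choice of regions except that without those surroundings, where it had 0.346.

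Within chromosome 18 the near-equal ratio belonged to a short stretch dense in regions. The window from 5 to 10 Mb held 3354 of its 4569 regions, with 73167 pT120 and 69013 ubK119 reads and a ratio of 0.882 (0.873 to 0.891). There pT120 stood at 0.813 times the input, and 2499 RPM of the input of the chromosome came from this window. The next window, 10 to 15 Mb, held 1035 regions with a ratio of 0.550 (0.536 to 0.565). Farther along the chromosome, in windows with at least 20 regions, the ratio was 0.284 (0.233 to 0.344) from 45 to 50 Mb and 0.265 (0.221 to 0.316) from 75 to 80 Mb. Both were among the lowest 10% of windows. Windows with fewer regions varied, from 0.222 (0.140 to 0.343) with 13 regions at 30 to 35 Mb to 1.42 (1.01 to 2.02) with 7 regions at 15 to 20 Mb. The high value of chromosome 18 was therefore that of 1 window with most of its regions.

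In windows of 5 Mb, the lead of ubK119 was broad. Of 562 windows with a region, 448 held at least 20. Their ratio ranged from 0.195 to 1.28, with a median of 0.510, and its 10th and 90th percentiles were 0.326 and 0.786, 2.41-fold apart. The interval lay below 1 in 413 windows, included 1 in 27 and lay above 1 in 8. At least 1.5-fold more ubK119 was found in 353 windows (78.8%), and at least 1.5-fold more pT120 in 0 (0%). Relative to the input regions these counts were 76 and 42, and with the median region at 1 they were 28 and 87. In 439 windows pT120 was below the input, with a median of 0.435 times, and ubK119 was below it in 323, with a median of 0.892 times. The pool includes regions called in the input, which favours values below it.

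The longest run of adjacent windows with at least 1.5-fold more ubK119 was all of chromosome 17, 17 windows from 0 to 85 Mb with ratios from 0.239 to 0.554. Runs of 15 windows on chromosome 3 (0 to 75 Mb, summed ratio 0.415) and of 14 on chromosome 1 (0 to 70 Mb, summed ratio 0.372) came next. No window entered a run in the pT120 direction.

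**Figure D3:**
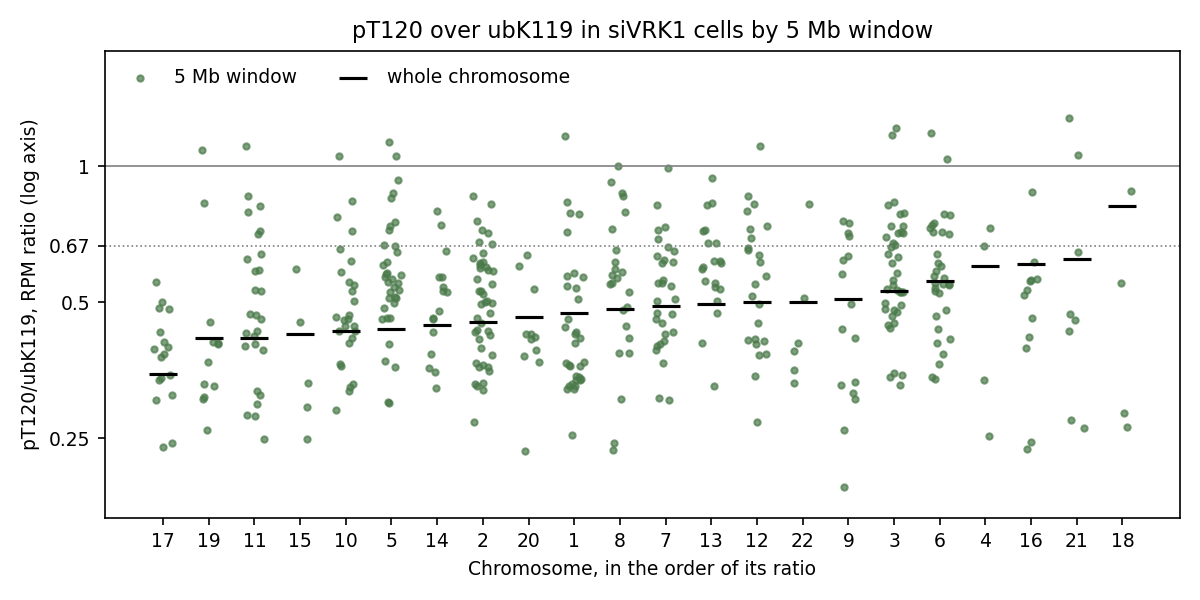
Each point is the pT120/ubK119 ratio of RPM in a 5 Mb window with at least 20 regions (log axis), and each dash the ratio of the whole chromosome; chromosomes are in the order of that ratio, the solid line is 1 and the dotted line is 1.5-fold in favour of ubK119. Chromosome 17 lies wholly below the dotted line, 14 windows exceed 1, and the dash of chromosome 18 at 0.816 sits close to its single dense window.

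Of the 6 lowest windows, 5 had their midpoint within 10 Mb of a chromosome end, and the lowest did not. That window, on chromosome 9 from 125 to 130 Mb, had 1.28 RPM of pT120, 6.54 RPM of ubK119 and 4.48 RPM of input, a ratio of 0.195 (0.138 to 0.270) from 20 regions. At the end of chromosome 20, from 60 to 65 Mb, 17.8 RPM of pT120 stood against 76.0 RPM of ubK119 and 59.8 RPM of input, a ratio of 0.234 (0.214 to 0.255). On chromosome 17, from 75 to 80 Mb, 34.0 RPM stood against 142 RPM with 99.5 RPM of input, a ratio of 0.239 (0.224 to 0.255). In all of these pT120 was far below and ubK119 above the input.

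The adjoining windows of chromosome 8 had 27.6 RPM of pT120 against 113 RPM of ubK119 from 140 to 145 Mb (0.244, 0.227 to 0.262) and 3.05 against 12.9 RPM from 145 to 150 Mb (0.236, 0.189 to 0.292). Without regions within 5 Mb of a chromosome end, the window from 140 to 145 Mb had a ratio of 0.548 (0.412 to 0.726). At the start of chromosome 16, from 0 to 5 Mb, 4.02 RPM stood against 17.0 RPM with 9.98 RPM of input (0.236, 0.195 to 0.284). The intervals of these 6 windows overlap, so their order is not resolved. In siControl cells their ratios were spread from 0.442 to 1.82, with 2 of the 6 above 1.

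Windows at the upper end had near-equal marks in RPM, which relative to the input regions is 2.15 to 2.42. On chromosome 6, from 55 to 60 Mb, 79.2 RPM of pT120 stood against 67.0 RPM of ubK119 and 83.7 RPM of input, a ratio of 1.18 (1.12 to 1.25). On chromosome 1, from 145 to 150 Mb, 96.1 RPM stood against 82.4 RPM with 98.8 RPM of input (1.17, 1.11 to 1.23). On chromosome 5, from 45 to 50 Mb, 30.7 RPM stood against 27.1 RPM with 28.4 RPM of input (1.13, 1.03 to 1.24). Here all 3 libraries, input included, were at similar levels.

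Adjoining windows of chromosome 3 had 18.9 against 16.2 RPM from 90 to 95 Mb (1.17, 1.04 to 1.32) and 3.80 against 3.14 RPM from 85 to 90 Mb (1.21, 0.926 to 1.59). On chromosome 21, from 20 to 25 Mb, 4.39 RPM stood against 3.44 RPM (1.28, 0.989 to 1.65). The intervals of the last pair include 1. In siControl cells the 6 windows had ratios from 0.410 to 1.20. Among VRK1 regions alone the windows of chromosomes 1 and 6 fell below 1, to 0.902 and 0.746, and with regions of any input level the window of chromosome 3 from 90 Mb fell to 0.926.

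Position was then examined over all windows. Of the 45 windows in the lowest 10% (ratios up to 0.326), 28 had their midpoint within 10 Mb of a chromosome end, against 74 of all 448 windows and 1 in the highest 10%. At the other extreme, the reference was the longest stretch of a chromosome without a region in any of the 7 lists, which could be placed clearly on 19 of the 22 chromosomes. Of 39 windows of the highest 10% on these chromosomes, 18 had their midpoint within 5 Mb of the stretch, against 43 of all 416 windows there and 0 in the lowest 10%. Of the 14 windows above 1, 13 lay on these chromosomes and 10 of them within 5 Mb of the stretch. No annotation of centromeres was used, and the stretch is defined only by the absence of regions.

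Summed over regions, the approach to that stretch was a rise of pT120 on a level background of ubK119. Within 1 Mb of it the ratio was 0.775 (0.761 to 0.790), at 1 to 2 Mb 0.641 (0.628 to 0.655), at 2 to 5 Mb 0.606 (0.594 to 0.618), at 5 to 10 Mb 0.474 (0.466 to 0.483) and beyond 50 Mb 0.446 (0.443 to 0.450), the steps up to 10 Mb each lying outside the interval of the one before. Over the same distances pT120 relative to input went from 0.771 within 1 Mb to 0.429 beyond 50 Mb, and ubK119 relative to input from 0.995 to 0.962. Set against the input regions, these ratios are 1.47 within 1 Mb and 0.846 beyond 50 Mb.

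At chromosome ends it was ubK119 that rose. Without chromosome 18, the ratio was 0.262 (0.256 to 0.267) at 1 to 2 Mb from an end (the start of the chromosome or its last region), 0.361 (0.356 to 0.366) at 2 to 5 Mb, 0.462 (0.456 to 0.469) at 5 to 10 Mb and 0.546 (0.541 to 0.550) beyond 50 Mb. The outermost 1 Mb had 0.416 (0.408 to 0.425), above the next bin. At 1 to 2 Mb ubK119 stood at 1.51 and pT120 at 0.395 times the input, against 0.924 and 0.504 beyond 50 Mb. Of the regions with 20 reads at 1 to 2 Mb, 90.2% were at least 2-fold higher in ubK119.

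The siVRK1 and siControl inputs differed along the same axes. Their ratio was 0.944 within 1 Mb of the region-free stretch and 1.10 beyond 50 Mb from it. It was 1.40 at 1 to 2 Mb from a chromosome end and 1.04 beyond 50 Mb. The siControl pT120/ubK119 ratio was 1.13 within 1 Mb of the stretch and 0.884 beyond 50 Mb, and 0.713 at 1 to 2 Mb from an end and 0.928 beyond 50 Mb. A gradient of the same direction, smaller in these libraries, was thus present in control cells.

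**Figure D4:**
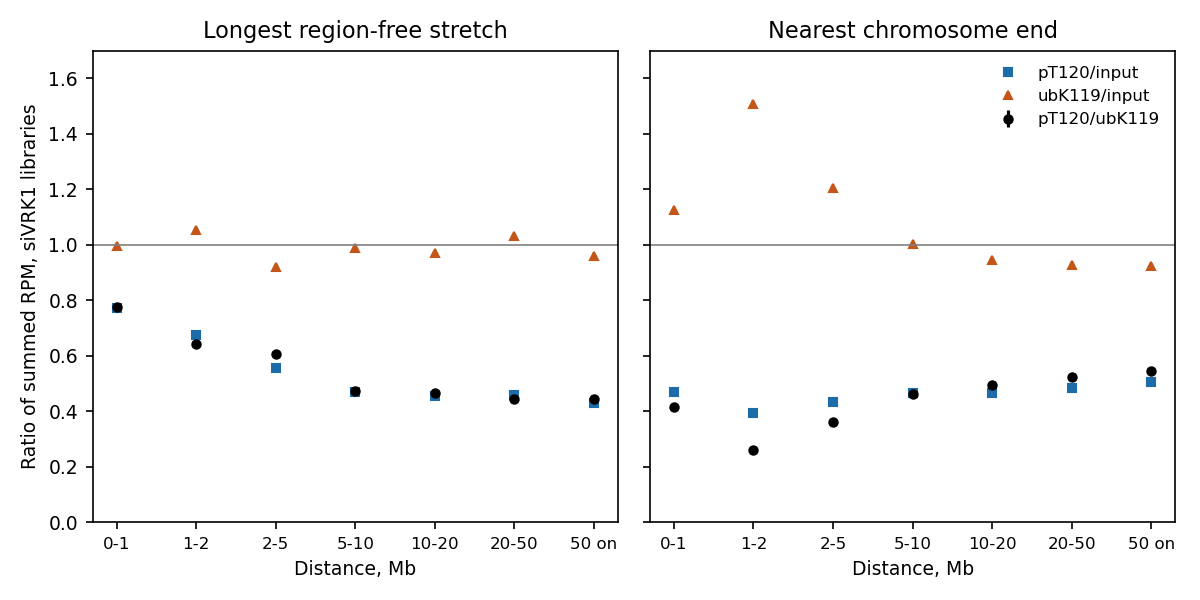
The panels give the ratio of summed RPM in siVRK1 cells (pT120/ubK119, pT120/input and ubK119/input) by distance in Mb from the longest stretch without regions (left, 19 chromosomes) and from the nearest chromosome end (right, without chromosome 18); exact 95% intervals of counting error are drawn on the pT120/ubK119 points and are no wider than the symbols. Near the stretch pT120/input rises to 0.771 while ubK119/input stays close to 1. At 1 to 2 Mb from an end ubK119/input is 1.51 and pT120/input 0.395. The divisor, siVRK1 input, is 1.40 times the siControl input there, and its part in these quotients was not tested.

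The window ratio did not carry over from siControl cells. The correlation of the log2 ratios over the 448 windows was r = 0.11 (Spearman's rho 0.15), and it was below 0 in 4 of the 5 lists taken alone. The siControl ratio had a median of 0.884 and was above 1 in 167 windows. In 160 of these windows it was above 1 in siControl and below 1 in siVRK1 cells, and in 399 of 448 the siControl ratio was the higher one. This direction turned with the scaling. With each siRNA's libraries set equal over the input regions, the window medians were 0.968 in siVRK1 and 0.688 in siControl cells, and the siVRK1 ratio was the higher one in 352 of 448 windows. The overall ratio became 0.988 against 0.695. Of the 70135 pooled regions, 24891 were called in siControl ubK119, which favours a low siControl ratio. Another 3062 came from siControl pT120, which favours a high one. On this scale siControl ubK119 regions outside input peaks had 1.11 in siVRK1 and 0.314 in siControl cells. VRK1 regions outside input peaks had 0.683 and 1.04, the other order. The part of the lists was not tested, and no direction between the siRNAs is drawn.

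Ratios that hold neither of the compared libraries went with it more closely. Across windows the log2 ratio of pT120 to ubK119 correlated with the log2 ratio of siVRK1 to siControl input at r = -0.70 (rho -0.75), and with that of VRK1 to siControl input at r = -0.70 (rho -0.75) as well. With siControl pT120 over siControl input it was r = -0.53, and with siControl ubK119 over siControl input -0.43. These ratios share the siControl input as their divisor. For the ratio of the inputs, outside input peaks the correlation was r = -0.64 over 341 windows, in the VRK1 list alone -0.69 over 222, and away from the region-free stretch -0.73 over 383. In the 150 windows with the lowest input ratio (0.521 to 0.971) the median pT120/ubK119 ratio was 0.649, in the middle 149 it was 0.526 and in the 149 with the highest (1.16 to 2.14) it was 0.362. Windows share copy number and region lists, so these are descriptions, and the part of the inputs in the ratio was not tested.

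**Figure D5:**
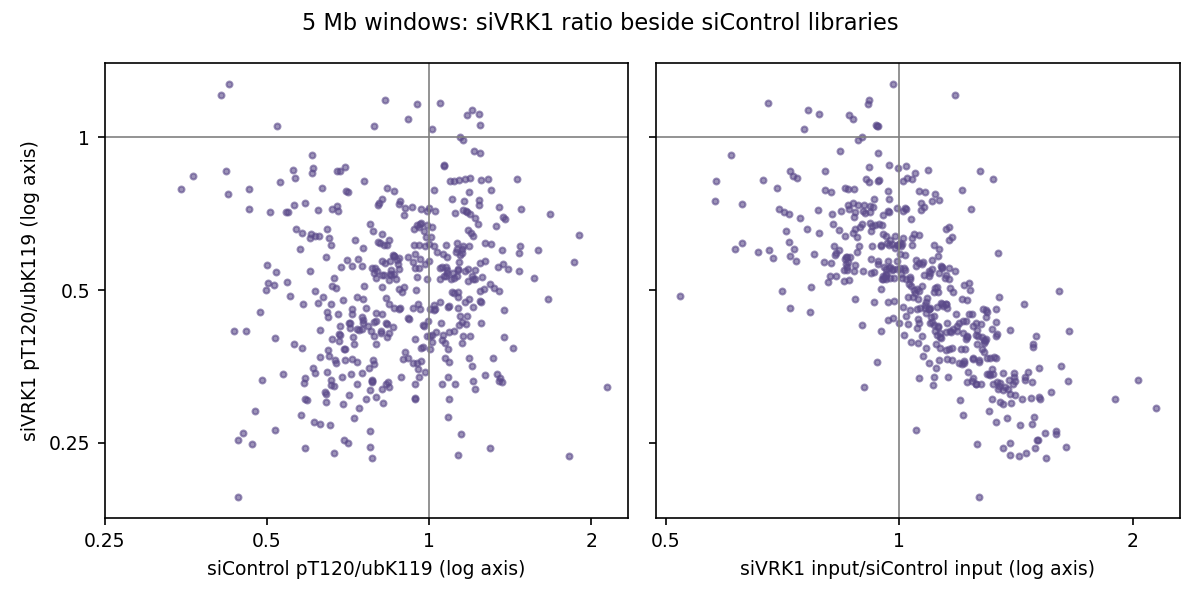
Points are the 448 windows, with pT120/ubK119 in siVRK1 cells on the vertical axis against the same RPM ratio in siControl cells (left) and against siVRK1 input over siControl input (right), all on log axes. The first cloud has little slope (r = 0.11) and the other falls from left to right (r = -0.70).

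Over windows the libraries paired differently than over regions. Log2 RPM per kb of siVRK1 ubK119 correlated with VRK1 at r = 0.80, with siControl pT120 at 0.74, with siControl ubK119 and siVRK1 input at 0.62 each and with siControl input at 0.15. That of siVRK1 pT120 correlated with siControl input at r = 0.71, with siControl pT120 at 0.70, with siVRK1 input at 0.56, with VRK1 at 0.54 and with siControl ubK119 at 0.47. Over windows siVRK1 pT120 was thus closer to siControl pT120 than to siControl ubK119, the reverse of the order over regions, while siVRK1 ubK119 was again closer to siControl pT120 and VRK1 than to siControl ubK119. Over windows, pT120 was therefore nearer to the input of the other siRNA than to its own, whereas ubK119 was nearer to its own. The compared marks correlated with each other at r = 0.42, but their ranks did not (rho 0.03).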

How the data were processed

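The labels put 1 library in each of 7 groups. Per the labels' protocols, DNA was amplified for 20 PCR cycles and read for 36 cycles. Bowtie 0.12.8, CASAVA 1.8.2, Partek and hg19 appear in the submitters' processing notes, without their roles. Per the file headers, peaks were called per library. Not given in the sources used here were the caller's settings, the handling of duplicates and whether positions count from 0 or 1. The authors deposited, for each peak, the count of reads of all 7 libraries, not normalized. Peak height, a signal in extended reads, and the same height as RPM were also deposited, and their quotient gave each library total. The percent of a region covered by peaks of other libraries was deposited too and was used to check overlaps of at least 1 bp, which differed in 0 of 893502 cases.

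Counts were divided by library totals and summed over regions, and log2 ratios of single regions used 0.5 added reads. Regions were placed in windows by their midpoint. Python 3.11.15, numpy 2.4.6, pandas 2.3.3 and scipy 1.17.1 were used, and the ratio and its interval were tested on simulated data. The members, lists and rules were chosen with earlier results of these data known. Named were the 6 regions with the highest lower bound and the 6 with the lowest upper bound of the ratio, outside input peaks and at most 1 per window, the 6 highest and 6 lowest windows, all 22 chromosomes and the longest runs of windows. Near the input maximum, 20 regions with 98 to 100 input reads had a ratio of 0.677 and 26 with 101 to 103 had 0.678. The bins by position and by reads, the input ratio, the criterion for a clear region-free stretch (the next longest under 0.75 of it) and the distances were chosen after the values were seen. 

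The alternatives were single lists, other input and read minimums, other scalings, window sizes and folds. Leaving out chromosome 18, chromosome ends, the surroundings of the region-free stretch, or the siControl ubK119 and pT120 lists was added after seeing the data. Chromosomes X and Y, gene names and sequences were not analysed here.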

Additional observations from a re-analysis of the deposited data

Results flagged for a closer look

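Among the 5 whole lists and the 22 chromosomes, 6 had a pT120/ubK119 ratio below 1 in siVRK1 cells and above 1 in siControl cells, with intervals that leave out 1. It was 0.649 and 1.24 for the siControl input list, 0.467 and 1.32 for the VRK1 list, 0.542 and 2.11 for the siControl pT120 list, and 0.475 and 1.32 for the siVRK1 input list. On chromosome 3 it was 0.528 and 1.01, and on chromosome 18 it was 0.816 and 1.03. Parts of these lists can meet the same rule, such as the VRK1 regions outside input peaks (0.360 and 1.34). The directions depend on the scaling. Relative to the input regions the values are 1.23 and 0.962 for the siControl input list, 1.00144 and 0.786 for chromosome 3 and 1.55 and 0.801 for chromosome 18, which turns the order of the siRNAs. For the VRK1 (0.886 and 1.02), siControl pT120 (1.03 and 1.65) and siVRK1 input (0.901 and 1.02) lists siVRK1 stays the lower. The difference between the siRNAs was not tested, since each group is 1 library. The siControl pT120 list was called in a library of the siControl ratio, which favours a value above 1 there. The chromosomes also hold regions of the siControl ubK119 list, which favour a lower siControl value.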

How the results depend on the processing

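No paired analysis was possible because the labels carry no replicate numbers and each group is 1 library. For the same reason no replicate was left out. Depth limits single regions most, since the median region held 12 reads in both libraries together. The cause of the changes below was not tested, apart from lists and minimums that leave fewer regions or windows to count.

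The overall ratio, 0.521, stayed below 1 under each choice of regions. For single lists it was 0.649 (siControl input), 0.467 (VRK1), 0.542 (siControl pT120), 0.627 (siControl ubK119) and 0.475 (siVRK1 input). It was 0.505 outside input peaks, 0.483 without regions that overlap a peak of the compared libraries, 0.602 with no input maximum and 0.504 with a maximum of 20 reads. Scaled to the input regions it was 0.988, and with the median region at 1 it turned to 1.14. Among the choices added after seeing the data it was 0.504 without 5 Mb around the region-free stretch, 0.479 without chromosome 18, 0.564 without 5 Mb at chromosome ends and 0.489 without the siControl ubK119 and pT120 lists.

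The median log2 ratio, -1.13, was -0.63 (siControl input), -1.10 (VRK1), -0.87 (siControl pT120) and -0.82 (siControl ubK119) in single lists. It was -1.40 outside input peaks, -1.31 without peaks of the compared libraries, -1.30 with an input maximum of 20 reads, -1.09 with 10 and -0.69 with 40 reads as minimum. Scaling to the input regions gave -0.21 and the median scaling 0 by construction. It was -1.22 without the region-free surroundings, -1.42 without chromosome 18 and -0.93 without chromosome ends.

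The 700 regions 2-fold higher in pT120 were 5.41% of 12947, and shares below are of the regions with enough reads in each setting. In single lists they were 308 (6.61%, siControl input), 141 (2.79%, VRK1), 112 (4.07%, siControl pT120), 595 (7.86%, siControl ubK119) and 204 (3.56%, siVRK1 input). They were 324 (6.11%) outside input peaks and 29 (0.456%) without peaks of the compared libraries. Under the input and median scalings they were 2236 (17.3%) and 2785 (21.5%). With minimums of 10 and 40 reads they were 2466 (5.37%) and 208 (6.30%), and at 3-fold 315 (2.43%). Without chromosome 18 there were 323 (3.25%), and without the siControl ubK119 and pT120 lists 373 (4.15%). The 7112 regions 2-fold higher in ubK119 were 54.9% in the reported setting. In single lists they were 1726 (37.0%, siControl input), 2702 (53.4%, VRK1), 1233 (44.9%, siControl pT120), 3378 (44.6%, siControl ubK119) and 3112 (54.3%, siVRK1 input). They were 3282 outside input peaks, 4137 without peaks of the compared libraries, 4722 with an input maximum of 20 reads, 3492 and 2969 under the input and median scalings, 24997 and 1322 with minimums of 10 and 40 reads, and 4720 at 3-fold.

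Windows 1.5-fold higher in pT120 were 0 of 448 in the reported setting. They were 1 of 285 in the siControl ubK119 list, 1 of 341 outside input peaks and 1 of 451 with no input maximum. Under the input and median scalings they were 42 and 87 of 448. Windows 1.5-fold higher in ubK119 were 353 of 448 in the reported setting. Single lists had fewer windows to count. There they were 168 of 237 (siControl input), 204 of 222 (VRK1), 43 of 53 (siControl pT120) and 169 of 285 (siControl ubK119). Under the input and median scalings they were 76 and 28 of 448. In windows of 1 Mb they were 804 of 943, and at 2-fold 215 of 448.

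The correlation with the siControl ratio over windows, 0.11, turned to -0.10 (siControl input), -0.12 (VRK1), -0.54 (siControl pT120) and -0.10 (siVRK1 input) in single lists, -0.089 outside input peaks and -0.077 without the siControl ubK119 and pT120 lists. That of pT120 with its input, 0.56, was 0.81, 0.88, 0.92, 0.81 and 0.82 in the siControl input, VRK1, siControl pT120, siControl ubK119 and siVRK1 input lists, 0.26 outside input peaks and 0.28 without the region-free surroundings. That of ubK119 with its input, 0.62, was 0.91, 0.85, 0.93, 0.81 and 0.77 in those lists, 0.498 outside input peaks, 0.46 without the region-free surroundings and 0.811 without the siControl ubK119 and pT120 lists.

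Scaling to the input regions put chromosomes 3 (1.00144), 4 (1.14), 6 (1.06), 16 (1.15), 18 (1.55) and 21 (1.18) above 1. The median scaling put there chromosomes 1 (1.04), 3 (1.16), 4 (1.32), 6 (1.22), 7 (1.07), 8 (1.06), 9 (1.11), 12 (1.096), 13 (1.09), 16 (1.33), 18 (1.79), 20 (1.01), 21 (1.36) and 22 (1.099). Among the highest windows, that of chromosome 1 fell below 1 in the VRK1 (0.902), siControl pT120 (0.861) and siVRK1 input (0.948) lists, without peaks of the compared libraries (0.522) and without the region-free surroundings (0.514). The window of chromosome 3 from 90 Mb fell to 0.926 with no input maximum. That of chromosome 6 fell to 0.746 (VRK1), 0.946 (siVRK1 input), 0.774 without peaks of the compared libraries and 0.958 without the siControl ubK119 and pT120 lists. Without chromosome 18, the overall ratio, the median log2 ratio and the count of pT120-high regions moved; the other results computed there kept their direction.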
